A study of Tribolium castaneum with 17 samples.

Results

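In the red flour beetle *Tribolium castaneum*, 86 of 12302 gene models (0.699%) had their 3 highest values in the 3 male carcass libraries. They were selected on the measured values themselves, by a mean of 5 CPM or more in male carcass and by every male carcass value lying above the highest value of the other 14 libraries. CPM are counts of reads per gene model set to a common library size, scaled by the authors with TMM factors. Since the values chose the genes, the levels in male carcass are given below as a description with no test, and tests were run only between the other groups.

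The 17 libraries of poly(A) RNA, read as unpaired 75-nt sequences, all came from wild type beetles of strain GA2. Male carcass (S10 to S12) is the adult male body without testis, testis is S16 and S17, ovary is S13 to S15, and female carcass (S7 to S9) is the adult female body without ovary. Each adult library pooled 30 beetles at 4 days after eclosion. The ovaries came from virgin females. Embryos of 6-11 hr (S4 to S6) and of 0-5 hr (S1 to S3) came in pools of 80 to 100 per library, laid by adults older than those dissected. The labels call the libraries replicates of a group, and the study says that RNA extraction and library preparation were done together.

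In an insect carcass most RNA comes from tissues that both sexes have, such as flight muscle, fat body, gut, cuticle and brain. The male body also holds accessory glands and ejaculatory ducts, which make the proteins of the seminal fluid that is passed to the female at mating. Whether these glands stayed with the carcass or came away with the testis is not stated in the sources used here. Each library is a mixture of cell types, so more cells of a type and more RNA per cell cannot be told apart. None of the 86 genes was matched by the reference table used here. TC010476 is named in the text of the study as the homolog of fly *flightin*, which in *Drosophila* codes for a protein of the thick filaments of flight muscle. The other genes are given by identifier, without a role, since no further annotation was used here.

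Libraries held 18664366 to 34847471 reads in gene models, those of male carcass 19416253 to 22932047, so that 1 read is worth 0.0217 to 0.0595 CPM. Counting error alone is covered by such floors. To check the carcass label, a testis list was made of 654 genes 16-fold or more higher in testis mean than in ovary mean. It was made on the log2(CPM + 1) scale, which leaves out genes of a few CPM. None of the 86 genes is in it, but the ovary mean includes library S13, which was raised in 9 of them. TC008234 and TC000602 averaged 304 and 66.8 CPM in testis and 67.6 and 13.9 CPM in ovary. Over S14 and S15 they averaged 1.37 and 0.745 CPM. The list was not made without S13. At the median, a gene of this list had 2.38%, 5.88% and 4.70% of its testis mean in the male carcass libraries S10, S11 and S12, against 0.654% to 1.096% in ovary and 0.289% to 0.401% in female carcass. Summed over the list, this made 18645, 62562 and 29643 CPM in S10, S11 and S12, against 315645 to 456722 CPM in testis and 7573 to 16504 CPM in female carcass. A list of 90 ovary genes made in the same way stood at 1.68% to 2.33% of its ovary mean in male carcass and at 2.02% to 10.5% in female carcass. At that median share, the testis mean of each of the 86 genes would make up at most 1.90% of its value in S10, 4.05% in S11 and 3.54% in S12. The rule keeps both testis values under every male carcass value, so these shares had to lie under the list medians. They are no test of the part of testis RNA in the 86 genes.

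**Figure D1:**
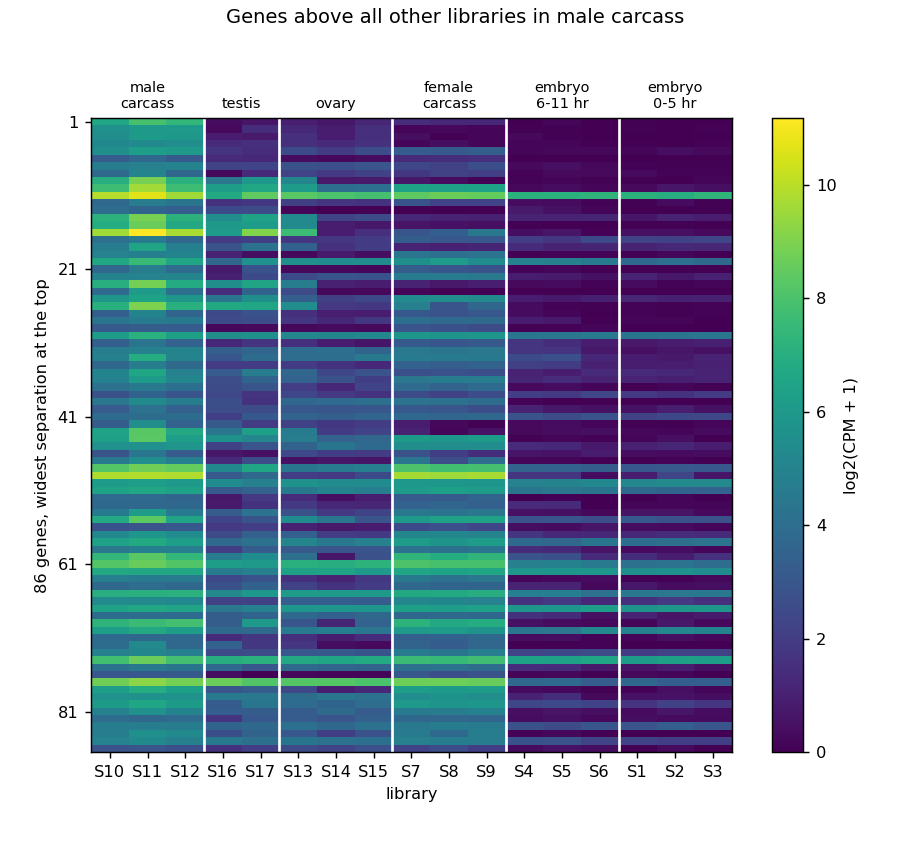
Level of the 86 genes, log2(CPM + 1) as color, in each of the 17 libraries (columns, grouped by sample type), with genes ordered from the widest separation of male carcass at the top to the narrowest at the bottom. Male carcass is highest by the selection rule, female carcass is the closest group for most genes, and 55 genes average under 1 CPM in embryos of 0-5 hr.

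The mean level in male carcass ran from 6.21 to 1325 CPM, with a median of 38.1 CPM. For 66 genes the highest of the other libraries was a female carcass library, for 14 a testis library and for 6 an ovary library, and for none an embryo library. The lowest male carcass value exceeded that library by a median of 1.1 times, with a range of 1.003 to 60.7 times. The gap was thus narrow for most of the genes. It was under 1.1 times for 43 genes and 2 times or more for 10 genes only.

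On the threshold itself, the lowest male carcass value was 1.003 times the highest other value for TC004900, TC012473 and TC012232, the nearest inside. It was 0.999, 0.999 and 0.998 times for TC002483, TC034176 and TC009307, the nearest outside. The genes nearest the 5 CPM minimum were TC004900, TC011737 and TC032827, with means of 6.21, 6.64 and 7.52 CPM in male carcass, and no gene under 5 CPM met the separation. The number of genes followed closely which libraries entered the rule. It was 368 without male carcass library S10, 149 without S11, 153 without S12, 188 without female carcass library S7 and 145 without S9, and it was 2775 with no female carcass library and 599 with no testis library. The scaling mattered too, since 118 genes met the rule with RLE factors, 85 of the 86 among them, and 211 with library totals alone, 70 of the 86 among them. All the genes lost had a gap of 1.17 times or less.

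Averaged by group, male carcass stood 1.64 times over female carcass at the median gene (range 1.09 to 741), 4.63 times over testis (1.44 to 397) and 7.09 times over ovary (1.24 to 267). Library S11 weighed on these means, and without it the medians were 1.36 times over female carcass, 3.84 over testis and 5.52 over ovary. The same genes were mostly low in embryos. Of the 86, 46 (53.5%) had a mean under 1 CPM in embryos of 6-11 hr and 55 (64.0%) in embryos of 0-5 hr. Of all 10961 genes with a male carcass mean of at least 5 CPM, 15.3% were that low in embryos of 6-11 hr and 20.7% in embryos of 0-5 hr. A mean under 1 CPM was found for 8 genes (9.30%) in testis, 11 (12.8%) in ovary and 10 (11.6%) in female carcass, beside 1.74%, 2.67% and 3.002% of those 10961 genes. The rule kept every value of these 5 groups under the lowest male carcass value, which favors genes low in them. These shares are thus a description with no test. Summed over the 86 genes, male carcass held 7656, 14772 and 7914 CPM in S10, S11 and S12, against 1795 and 2926 CPM in testis, 1540 to 2211 CPM in ovary, 4188 to 4442 CPM in female carcass and 556 to 655 CPM in embryos.

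**Figure D2:**
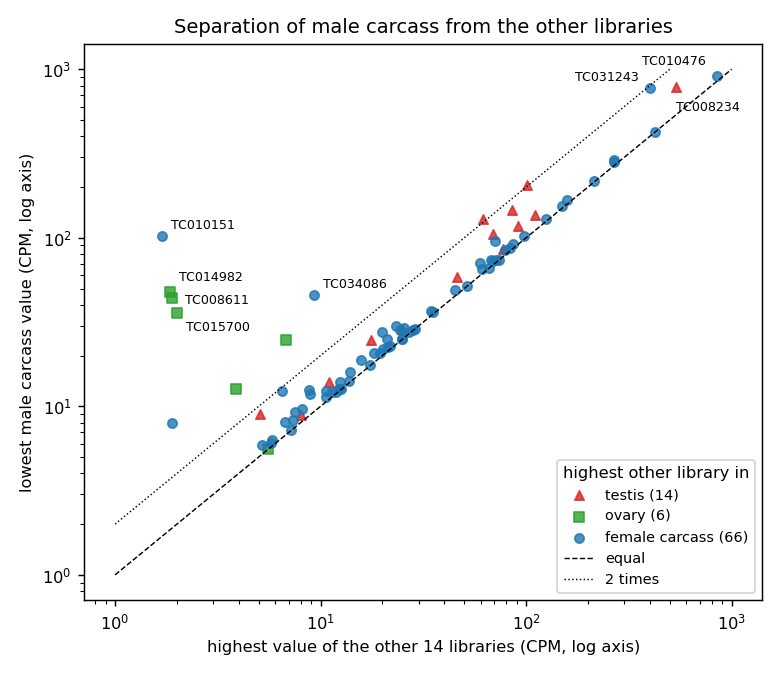
Lowest male carcass value (y axis, CPM, log axis) against the highest value of the other 14 libraries (x axis, CPM, log axis) for each of the 86 genes, with marker and color showing the group of that other library. Most points lie just above the line of equality, and TC010151, TC014982, TC008611 and TC015700 lie more than 10 times above it.

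The widest separation was that of TC010151. It had 102, 245 and 170 CPM in male carcass, against 0.294 and 0.574 CPM in testis, 0.890, 0.672 and 1.324 CPM in ovary and 1.69, 1.34 and 1.36 CPM in female carcass. It was at or under 0.101 CPM in every embryo library. Its mean in male carcass was 172 ± 71.6 CPM (SD, n = 3), and the lowest of the 3 values was 60.7 times the highest value elsewhere.

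Of the next 3 genes, TC014982 had 47.6, 62.9 and 64.2 CPM in male carcass, against 0.235 and 1.72 CPM in testis, 1.45, 0.846 and 1.85 CPM in ovary and 0.109, 0.199 and 0.105 CPM in female carcass. TC008611 had 43.7, 66.4 and 60.8 CPM in male carcass, against 0.824 and 0.746 CPM in testis, 1.89, 0.846 and 1.85 CPM in ovary and 0.326, 0.0497 and 0.157 CPM in female carcass. TC015700 had 35.8, 38.8 and 43.2 CPM in male carcass, against 1.53 and 1.95 CPM in testis, 1.92, 1.63 and 2.01 CPM in ovary and 0.163, 0.348 and 0.105 CPM in female carcass. Testis and ovary values overlapped in TC014982 and TC015700, though in all 3 genes the highest other library was an ovary library. In all 3, female carcass was near the level of single reads. Their female carcass values rest on 2, 4 and 2 reads for TC014982, 6, 1 and 3 for TC008611 and 3, 7 and 2 for TC015700. The spread over the 3 male carcass libraries was small, at most 1.52 times between lowest and highest.

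TC034086, TC033355, TC008610 and TC032756 were separated by 3.30 to 4.92 times. TC034086 had 45.7, 73.5 and 63.9 CPM in male carcass, against 2.24 and 1.66 CPM in testis, 4.62, 2.99 and 5.18 CPM in ovary and 8.54, 8.0 and 9.29 CPM in female carcass. TC033355 was a gene of low level, with 8.42, 12.8 and 7.98 CPM in male carcass, against 1.53 and 1.43 CPM in testis, 0.278, 0.195 and 0.303 CPM in ovary and 1.63, 1.74 and 1.89 CPM in female carcass. It had no read in any embryo library, so that male carcass was at least 69.8-fold higher than embryos of 6-11 hr and at least 106-fold higher than embryos of 0-5 hr, counted against 3 reads in the library where a read is worth most. TC008610 had 24.8, 28.2 and 30.8 CPM in male carcass, against 3.94 and 3.79 CPM in testis, 5.90, 5.68 and 6.81 CPM in ovary and 4.13, 3.63 and 5.51 CPM in female carcass. TC032756 had 13.5, 32.0 and 12.7 CPM in male carcass, against 0.177 and 1.61 CPM in testis, 3.87, 2.58 and 3.52 CPM in ovary and 2.50, 3.58 and 3.15 CPM in female carcass. The 2 other genes past 2 times were TC002660 and TC032819, and for both it was a testis library that came closest.

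**Figure D3:**
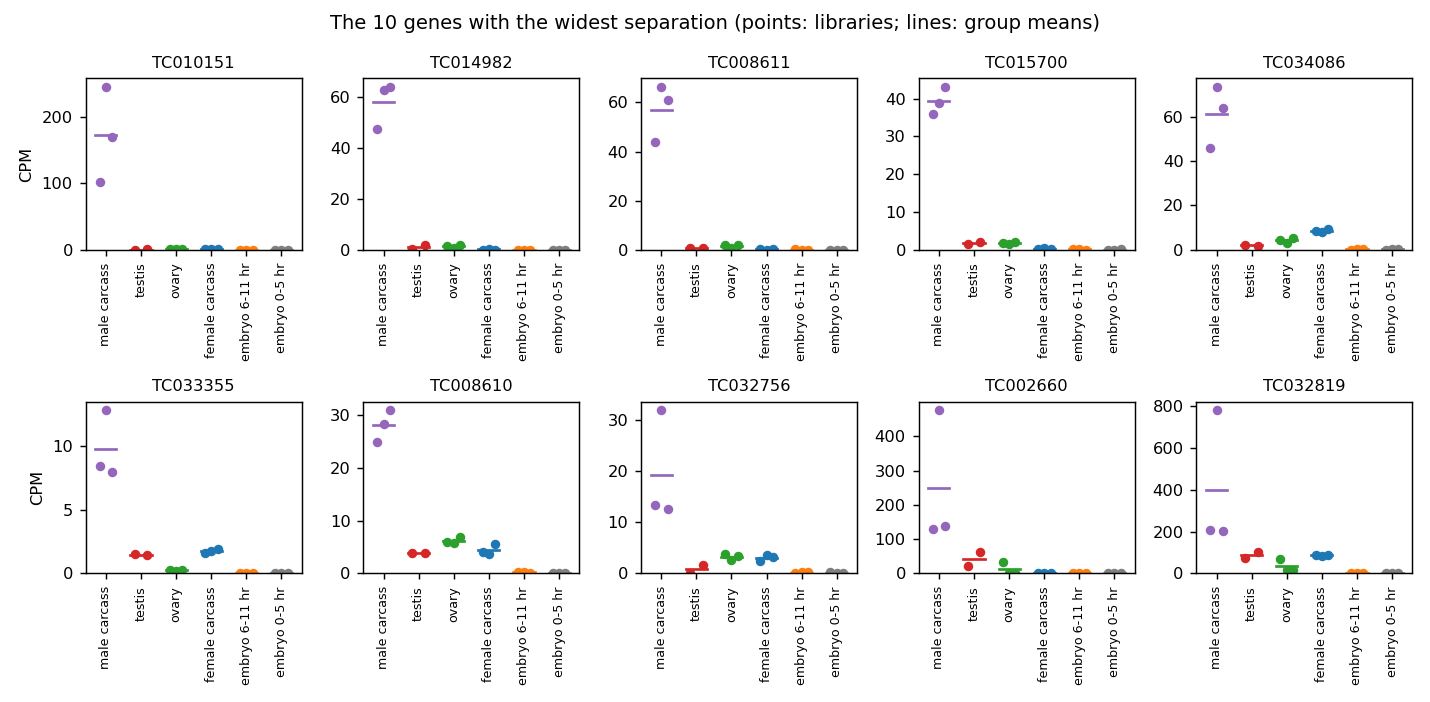
CPM of the 10 genes with the widest separation, on linear axes from 0 that differ between panels, with each library as a point and each group mean as a line. In TC010151, TC014982, TC008611 and TC015700 all other groups lie near 0, while in TC002660 and TC032819 the male carcass mean is drawn up by library S11.

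One gene had no read at all in the other carcass. TC031618 had 14.8, 11.2 and 9.06 CPM in male carcass, against 4.65 and 5.05 CPM in testis and 0.111, 0 and 0.0378 CPM in ovary. All 3 female carcass libraries had 0 reads, which makes the male carcass mean at least 71.8-fold higher, counted against 3 reads in the library where a read is worth most. In embryos it had 37 reads over the 3 libraries of 6-11 hr and 3 reads over those of 0-5 hr. It was thus found at a few CPM or more in both male samples and at or near 0 in both female samples.

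At the other end, many of the most abundant genes were nearly as high in female carcass. The *flightin* homolog TC010476 had 917, 951 and 929 CPM in male carcass, against 7.65 and 13.8 CPM in testis, 3.11, 2.62 and 4.73 CPM in ovary and 812, 743 and 850 CPM in female carcass. The groups of the 2 carcasses did not overlap, yet the male mean was only 1.16 times the female mean. TC008024 had 425, 600.1 and 459 CPM in male carcass, against 391 and 286 CPM in testis, 289, 290.03 and 254 CPM in ovary and 422, 415 and 384 CPM in female carcass. TC031393, TC006594 and TC014819 had male carcass means of 365 ± 71.7, 317 ± 53.7 and 281 ± 99.8 CPM, against female carcass means of 241 ± 24.7, 252 ± 13.03 and 196 ± 19.2 CPM (SD, n = 3 each). TC031243 stood further apart, with 983, 1626 and 771 CPM in male carcass, against 114 and 345 CPM in testis, 313, 256 and 234 CPM in ovary and 333, 401 and 370 CPM in female carcass. It also had 141 to 151 CPM in embryos of 6-11 hr and 124 to 156 CPM in embryos of 0-5 hr, the highest embryo level among the 86 genes.

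The 3 male carcass libraries did not rank these genes evenly. S11 was the highest of the 3 for 66 genes (76.7%), S12 for 13 and S10 for 7, while S11 was highest for 46.5% of all genes at 5 CPM or more in male carcass. The ratio of S11 to S10 had a median of 1.504 over the 86 genes and 1.052 over the genes at 5 CPM or more. S12 over S10 had medians of 1.06 and 1.02. S11 is also the library with the largest share of the testis list, and the part of testis RNA in this was not tested. The steadiest genes were TC003492 with 52.0, 52.3 and 51.9 CPM, TC033547 with 12.2, 12.4 and 12.5 CPM and TC011098 with 25.0, 25.0 and 25.8 CPM in S10, S11 and S12. All 3 lay close to female carcass, at 1.09 to 1.18 times its mean.

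In 20 genes (23.3%) S11 was at least 2 times both other male carcass libraries, which was so for 399 (3.64%) of the genes at 5 CPM or more. In these 20, S11 stood 2.37 to 4.98 times over S10 (median 3.46), while S12 stood 0.808 to 1.318 times over S10 (median 1.01). Over the testis list the same ratios had medians of 2.54 for S11 and 1.93 for S12. In the testis list S12 was raised with S11, and in the 20 genes it was level with S10. The 20 genes were picked with S11 at least 2 times S12, which kept S12 down. This difference between the 2 sets is thus a description with no test. For 12 of the 20 the highest other library was a testis library. The largest ratios of highest to lowest male carcass library were those of TC007730 with 8.91, 44.4 and 10.5 CPM, TC002661 with 14.02, 68.6 and 16.6 CPM and TC008435 with 79.6, 322 and 73.5 CPM in S10, S11 and S12.

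The most abundant of all 86 genes belonged to these 20. TC008234 had 783, 2316 and 877 CPM in male carcass, against 71.5 and 536 CPM in testis, 200.1, 0.781 and 1.97 CPM in ovary and 6.91, 9.14 and 20.9 CPM in female carcass. TC002660 had 129, 475 and 139 CPM in male carcass, against 20.4 and 62.0 CPM in testis, 33.8, 0.694 and 0.757 CPM in ovary and 0.653, 0.298 and 0.0525 CPM in female carcass. In both genes testis library S17 and ovary library S13 stood well above their fellow libraries. TC000982 had 137, 496 and 138 CPM in male carcass, against 110.5 and 96.9 CPM in testis, 43.5, 2.62 and 2.46 CPM in ovary and 28.5, 6.51 and 12.0 CPM in female carcass. TC033548 had 146, 470.4 and 145 CPM in male carcass, against 43.8 and 85.0 CPM in testis, 39.6, 3.86 and 5.11 CPM in ovary and 1.41, 1.14 and 1.0497 CPM in female carcass. TC032819 had 208, 782 and 205 CPM in male carcass, against 73.0 and 100.6 CPM in testis, 69.4, 15.6 and 16.2 CPM in ovary and 88.7, 82.4 and 88.0 CPM in female carcass. In TC032819, unlike the others, female carcass was as high as testis.

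The raised ovary library was a common feature. S13 was at least 5 times both S14 and S15 in 9 of the 86 genes (10.5%), against 76 (0.693%) of the 10961 genes at 5 CPM or more in male carcass. All 9 (TC008234, TC000982, TC033548, TC002660, TC013173, TC000602, TC007018, TC002661 and TC033015) were among the 20 with a raised S11. Their S13 value was 5.56% to 10.2% of their S11 value, with a median of 7.96%, and 7.15 to 146 times the mean of S14 and S15. Ovary means of these genes therefore rest on 1 library. In testis, S17 was above S16 in 62 of the 86 genes, and in 47.7% of the genes at 5 CPM or more.

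**Figure D4:**
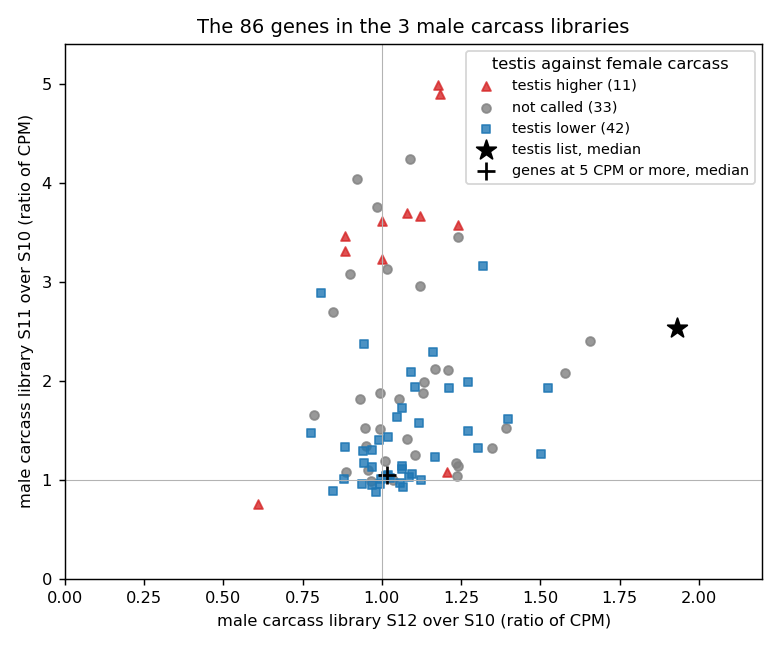
Ratio of male carcass library S11 to S10 (y axis) against S12 to S10 (x axis), both linear ratios of CPM, for the 86 genes, with color and marker giving the call of testis against female carcass. The star is the median of the testis list (1.93, 2.54) and the cross that of all genes at 5 CPM or more. Of the 11 genes higher in testis, 9 lie at S11 ratios above 3 with S12 near 1. These 9 are among the 20 genes picked by S11 at least 2 times S10 and S12.

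Calls between groups began with testis and female carcass. By limma on log2(CPM + 1), with a call at 2-fold and a Benjamini-Hochberg adjusted p under 0.01 over 12152 genes, testis was higher than female carcass in 11 of the 86 genes (12.8%) and lower in 42 (48.8%). Over all genes tested, 27.1% were called higher and 32.8% lower. The median log2 fold change was −1.08 over the 86 genes and −0.15 over all genes. The rule did not order these 2 groups, but it kept every testis and female carcass value under the lowest male carcass value. Male carcass averaged 2 times female carcass or more in 33 of the 86 genes only. In the others the rule left hardly any room for testis to be 2-fold higher than female carcass. The shares called higher and lower are thus a description of the genes chosen, set largely by the rule.

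The 11 genes higher in testis were TC000602, TC013173, TC033548, TC002660, TC007018, TC000982, TC031618, TC008505, TC002661, TC007730 and TC015700. TC000602 had 64.3 and 69.4 CPM in testis, against 0.489, 0.447 and 0.367 CPM in female carcass, a log2 fold change of 5.56 ± 0.99 (SE; limma adjusted p = 0.000124). TC013173 had 46.3 and 91.6 CPM in testis, against 1.196, 0.695 and 0.892 CPM in female carcass (log2 scale, 5.11 ± 0.87, limma adjusted p = 7.43e-05). TC007018 had 20.1 and 77.6 CPM in testis, against 1.196, 0.0993 and 0.472 CPM in female carcass (log2 scale, 4.74 ± 0.72, limma adjusted p = 2.06e-05). In each of these, picked among the largest called increases, the testis and female carcass libraries were far apart. The log2 fold change was 4.82 ± 0.70 for TC033548 and 4.81 ± 1.00 for TC002660 (limma adjusted p = 1.36e-05 and 0.000455), and 2.55 ± 0.21 for TC031618 (limma adjusted p = 2.64e-08). Of the 11 genes, 9 were among the 20 with a raised S11, where 3 were lower in testis. Among the 66 other genes 2 were higher in testis, TC031618 and TC015700, and 39 lower. Of the 11, TC031618, TC002661, TC007730 and TC015700 passed the filter of 5 CPM in 3 libraries only through male carcass, and among the 71 genes that pass it without male carcass 7 were higher and 39 lower. Without testis library S17 the number of higher genes was 7, and TC000982, TC002660, TC002661 and TC008505 were no longer called. The share over all genes was not counted without S17.

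The genes lower in testis than in female carcass were led by the *flightin* homolog TC010476, at a log2 fold change of −6.15 ± 0.46 (SE; limma adjusted p = 8.15e-09). TC032700 had 3.71 and 6.54 CPM in testis, against 66.0, 85.7 and 85.9 CPM in female carcass (log2 scale, −3.74 ± 0.58, limma adjusted p = 2.78e-05). TC032229 had 1.18 and 0.344 CPM in testis, against 19.9, 15.7 and 18.3 CPM in female carcass (log2 scale, −3.47 ± 0.22, limma adjusted p = 1.34e-09). TC031004 and TC014225 followed, at −3.03 ± 0.34 and −2.93 ± 0.26 (limma adjusted p = 6.84e-07 and 4.63e-08). These 5 genes were picked as the largest called decreases, so their lack of overlap between testis and female carcass is no further result. In male carcass they had 917 to 951 CPM (TC010476), 91.6 to 327 CPM (TC032700), 27.5 to 31.8 CPM (TC032229), 74.3 to 121 CPM (TC031004) and 49.1 to 55.5 CPM (TC014225).

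In ovary against female carcass, 6 of the 86 genes (6.98%) were higher and 43 (50%) lower by limma, beside 19.8% higher and 25.3% lower over all genes tested. The median log2 fold change was −1.01 over the 86 genes and 0.05 over all genes. The comparison shares its female carcass libraries with the one of testis above. The rule capped ovary as it did testis, so these shares too are a description of the genes chosen. The 6 higher genes were TC007018 (2.37 ± 0.64), TC033548 (2.28 ± 0.62), TC007730 (1.57 ± 0.45), TC015700 (1.24 ± 0.15), TC008611 (1.08 ± 0.21) and TC014982 (1.04 ± 0.25), given as log2 fold change with its SE. Their limma adjusted p ran from 2.50e-06 for TC015700 to 0.00517 for TC007730. TC014982, TC008611, TC015700 and TC007730 passed the filter on low values only through male carcass, the group that chose them, so these 4 calls rest on low values, for the first 3 on the few reads given above. Of the 71 genes that pass it without male carcass, 2 were higher and 40 lower in ovary than in female carcass. Without ovary library S13 only TC014982 and TC015700 were called higher, and without S8, S9, S10, S11, S12 or S15 in turn 3 genes were. Shares over all genes were not counted for libraries left out. Without S11 the 3 genes lost were TC014982, TC008611 and TC015700, which then no longer pass the filter. Lower genes had TC010476 first, at −7.51 ± 0.41 (limma adjusted p = 1.32e-09), then TC006400 at −4.63 ± 0.65 and TC031004 at −4.61 ± 0.30 (limma adjusted p = 1.59e-05 and 5.16e-09). TC006400 had 16.7, 0.672 and 5.79 CPM in ovary, against 157, 121 and 159 CPM in female carcass.

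Considering both comparisons side by side, 32 genes were called lower than female carcass in testis and in ovary alike (37.2%, beside 19.6% of all genes tested), and 4 were called higher in both (4.65%, beside 12.3%), TC033548, TC007018, TC015700 and TC007730. The female carcass libraries are the same in both comparisons, so these joint calls are not independent. The rule left little room for calls of higher in either, so the joint shares are a description as well. Neither comparison called 20 of the genes (23.3%, beside 28.7%), the most abundant TC008234 and the widest separated TC010151 among them. TC008234 differed from female carcass by 4.03 ± 1.47 in testis and by −0.24 ± 1.316 in ovary (log2 fold change ± SE), where the 2 testis libraries and the 3 ovary libraries were far from each other.

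Set against ovary, testis was higher in 18 genes (20.9%) and lower in 8 (9.30%) by limma, beside 22.1% higher and 21.1% lower over all genes tested. The median log2 fold change was 0.23 over the 86 genes and −0.03 over all genes. With library totals in place of TMM factors 5 genes were higher and 20 lower, and the median of all genes was −0.64, so the balance of the 2 directions depends on the scaling. Leaving out testis library S17 gave 5 higher and 13 lower, and leaving out ovary library S14 gave 9 higher. For library totals and for the libraries left out, the shares over all genes were not counted. Of the 71 genes that pass the filter of 5 CPM in 3 libraries without male carcass, 16 were higher and 6 lower in testis. The other 2 higher and 2 lower genes, TC031618 and TC031553 among them, passed it only through male carcass, the group that chose them.

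TC013173 (46.3 and 91.6 CPM in testis, against 25.4, 1.04 and 0.8703 CPM in ovary), TC000602 and TC000982 were the furthest in the direction of testis, at log2 fold changes of 3.83 ± 0.87, 3.76 ± 0.99 and 3.67 ± 0.90 (limma adjusted p = 0.00123, 0.00377 and 0.00227). All 3 had a raised S13. TC033548 and TC006400 followed at 2.54 ± 0.70 and 2.51 ± 0.72 (limma adjusted p = 0.00459 and 0.00656). All 5 of these genes lost their call with edgeR's quasi-likelihood test, with DESeq2 and without testis library S17. TC031618 had the smallest SE of the leading genes, at 2.48 ± 0.21 (limma adjusted p = 5.76e-08). In the direction of ovary, TC014975 had 5.47 and 2.12 CPM in testis, against 12.2, 14.1 and 16.5 CPM in ovary (−1.76 ± 0.29, limma adjusted p = 7.06e-05). TC009690 had 23.0 and 28.2 CPM in testis, against 83.9, 87.1 and 65.7 CPM in ovary (−1.58 ± 0.12, limma adjusted p = 1.25e-08). TC031553, TC014237 and TC014225 were lower by −1.58 ± 0.39, −1.42 ± 0.15 and −1.35 ± 0.26 (limma adjusted p = 0.00221, 8.20e-07 and 0.000255). The changes in the direction of ovary were thus small, and none of the 8 passed a 4-fold threshold.

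**Figure D5:**
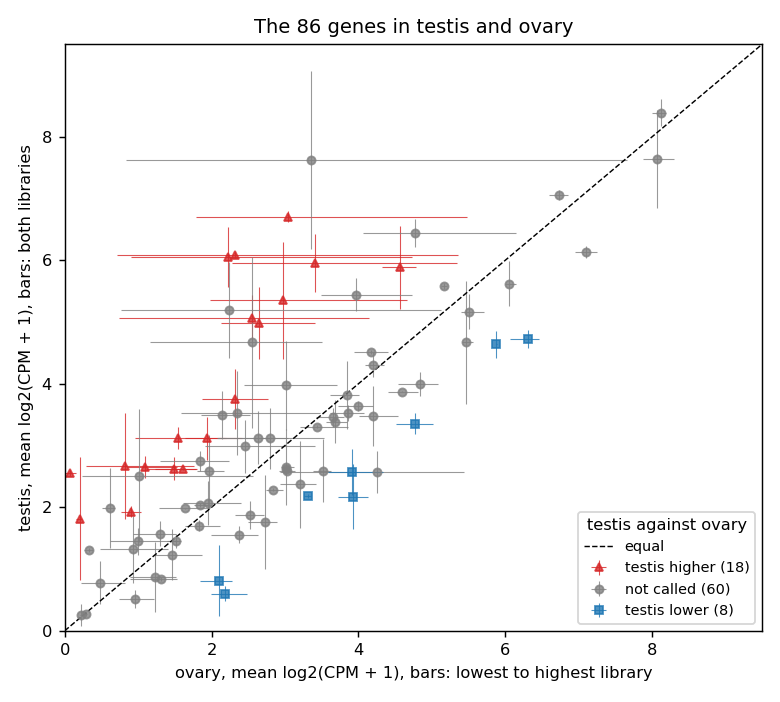
Mean log2(CPM + 1) of the 86 genes in testis (y axis) and ovary (x axis), with bars from the lowest to the highest library of each group and color and marker giving the limma call of testis against ovary. Several of the 18 genes higher in testis carry long ovary bars, which end at library S13, and the 8 lower genes lie at most 1.76 under the line of equality.

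Between the embryo stages none of the 86 genes was called in either direction by limma, beside 2.03% higher and 2.11% lower in embryos of 6-11 hr over all genes tested. At such shares few calls would fall on 86 genes in any case. Of the 86, 46 averaged under 1 CPM at 6-11 hr and 55 at 0-5 hr. At that level, 1 added to each CPM leaves little room for a 2-fold call. At an unadjusted p under 0.05, 13 of the 86 genes were higher and 0 lower at 6-11 hr, but the share over all genes was not counted. All genes leaned the same way, with a median log2 fold change of 0.14, against 0.09 over the 86 genes. On the reads recovered from the values, edgeR's quasi-likelihood test called 4 higher (4.65%), its likelihood ratio test 10 (11.6%) and DESeq2 9 (10.5%), and each of the 3 called 0 lower. Over all genes tested these 3 tests called 6.20%, 9.72% and 9.65% higher and 2.33%, 2.56% and 2.56% lower, so the shares were near those of all genes. Without embryo library S6 limma called 3 higher, for which the share over all genes was not counted. TC015753 had the largest log2 fold change, at 1.24 ± 0.47 (limma adjusted p = 0.0777), with 4.68, 5.60 and 1.35 CPM in embryos of 6-11 hr, against 0.795, 0.709 and 1.17 CPM in embryos of 0-5 hr. TC014237 had 18.6, 20.3 and 19.1 CPM in embryos of 6-11 hr, against 12.2, 11.1 and 10.6 CPM in embryos of 0-5 hr, a difference beyond the spread of the libraries but under 2-fold (0.72 ± 0.14, limma adjusted p = 0.00189).

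Some of the genes stood next to each other in the numbering of gene models that the deposited values carry. There were 7 pairs of neighbors among the 86 genes, which took in 14 of them (16.3%), TC016162 with TC031974, TC000982 with TC000602, TC003509 with TC003508, TC002660 with TC002661, TC032697 with TC004024, TC014982 with TC015700 and TC008610 with TC008611. Of the 71 next gene models that have values, 7 (9.86%) were among the 86, which make up 0.699% of all gene models. The numbers follow the authors' annotation, and positions in the genome were not analysed here. Over the 17 libraries the log2(CPM + 1) of the 2 genes of a pair had a Pearson r of 0.85 (TC008610 and TC008611) to 0.99 (TC014982 and TC015700), as a description only, since the rule fixes male carcass as highest in both. Of the 4 widest separated genes, TC014982 and TC015700 are such neighbors, and TC008611 lies beside TC008610, the seventh widest.

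The genes whose profile was most like that of TC008234 were sought over all gene models by Pearson r of log2(CPM + 1) in the 17 libraries. They were TC032866 (r = 0.977), TC032317 (0.971), TC013173 (0.965), TC000982 (0.960) and TC031419 (0.958), of which TC013173 and TC000982 belong to the 86. TC032866 had 92.3, 393 and 65.4 CPM in male carcass, against 87.9 and 198 CPM in testis, 56.9, 0.846 and 0.984 CPM in ovary and 4.57, 4.17 and 5.67 CPM in female carcass. It missed the rule because both testis values exceeded its lowest male carcass value. These 5 genes share with TC008234 the raised libraries S11 and S13, so the likeness is that of the libraries as well as of the groups.

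The same rule applied to the other groups chose 2095 genes for testis (from 2 libraries), 475 for ovary, 956 for female carcass, 1280 for embryos of 6-11 hr and 599 for embryos of 0-5 hr. Male carcass, with 86, had the smallest number of the 6 groups. The numbers are a description, since the groups differ in the number of libraries and in how near their closest group lies.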

How the data were processed

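Poly(A) RNA from 17 libraries of 6 groups was analysed. According to the paper, the authors mapped reads with HISAT2 2.0.5 to the Tcas5.2 assembly, took counts from BEDTools and normalized these with edgeR's TMM method. For 12302 gene models they deposited the resulting signal, a TMM scaled CPM. Dividing them by the value of 1 read gave whole reads within 0.01 read for 100% of the 209134 values, and such reads, 18664366 to 34847471 per library, entered the count tests only as alternatives. On these reads edgeR's quasi-likelihood test called 3429 genes higher and 3858 lower in testis than in female carcass, where limma called 3288 and 3990.

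The 12152 genes reaching 5 CPM in 3 or more libraries were tested with limma 3.58.1 on log2(CPM + 1) in R 4.3.3, with trended and robust variance and all 17 libraries in 1 model, and called at 2-fold and adjusted p under 0.01. A fold change on this scale understates the change of low genes. All 86 genes passed this filter, for which their male carcass libraries alone were enough, and 71 would pass it without them. The test was checked on simulated reads. P-values set a difference between groups against the spread within groups. That spread was estimated from all 17 libraries, those of male carcass included, and not from the 2 groups compared alone.

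The genes and lists were chosen with earlier results of these data known. Named were the genes of highest mean, widest separation, largest fold change, largest and smallest spread and nearest the thresholds, and those in the paper; others, such as TC031618, TC015753, TC006400 in ovary and TC032866, were named after their values were seen. Alternatives were edgeR 4.0.16, DESeq2 1.42.0, RLE factors, library totals, 0.1 or 5 added to each CPM, other filters and thresholds, fewer groups and leaving out each library. Sequences of these genes were not analysed here, and of 12282 TC identifiers 1 was found in the RefSeq table given (15518 genes).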

Additional observations from a re-analysis of the deposited data

How the results depend on the processing

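Changing the rule gave 10 genes with a gap of 2 times, 211 with library totals, 2775 with no female carcass library and 599 with no testis library, against 86, and 86 to 368 when each library was left out. Genes higher in embryos of 6-11 hr numbered 3 with 0.1 added to each CPM, 4 with edgeR's quasi-likelihood test, 10 with its likelihood ratio test and 9 with DESeq2, against 0 by limma (0 to 3 over libraries left out). Genes higher in ovary than in female carcass, 6 by limma, numbered 0 with 5 added, 11 with the likelihood ratio test and 2 at 4-fold (2 to 6 over libraries left out), and the 43 lower ones 23 at 4-fold. Genes higher in testis than in female carcass ran from 7 to 12 over libraries left out, against 11, and the 42 lower ones numbered 18 at 4-fold. Genes higher in testis than in ovary, 18 by limma, numbered 9 with 5 added, 5 with library totals, 4 with only the groups compared and 8 at 4-fold (5 to 25 over libraries left out), and the 8 lower ones numbered 4, 20, 6 and 0 under these settings (7 to 13 over libraries left out). Shares over all genes were counted only for the main limma setting, edgeR's tests and DESeq2. Under the other settings it is not known whether all genes moved alike. The causes were not tested. Library totals moved the median of all genes to −0.64 in testis against ovary and to 0.75 in ovary against female carcass, against −0.03 and 0.05. None of the 10 fold changes of testis over female carcass that were followed changed its sign. TC033548 and TC002660 lost their call with DESeq2, as did TC002660 without library S17. No paired analysis was possible because the labels give no replicate number that groups share. Depth limits values under about 0.178 CPM, which is 3 reads in the library where a read is worth most.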

Other observations

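Outside the 86 genes, 379 genes at 5 CPM or more in male carcass also had library S11 at 2 times or more of both S10 and S12. The highest of the other 14 libraries was a testis library for 139 of them, an ovary library for 25, a female carcass library for 202, an embryo library of 6-11 hr for 10 and an embryo library of 0-5 hr for 3.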
